A study of Mus musculus with 9 samples.

Results

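Heat shock proteins and their partner chaperones were followed through 10 genes, chosen by gene symbol, in messenger RNA from mouse oviducts and oviduct tumors. The members were the transcription factor gene Hsf1, the HSP70 genes Hspa1a, Hspa1b and Hspa8, the J-domain cochaperone gene Dnajb1, the HSP110 gene Hsph1, the cytosolic HSP90 gene Hsp90aa1, the small heat shock protein gene Hspb1, and the mitochondrial chaperonin genes Hspd1 and Hspe1. All 10 of 10 symbols were found among the 19435 genes of the table, each with more than the smallest total of 10 reads that any gene of the table had.

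The groups were 5 normal oviducts and 4 primary tumors. Oviducts 1 to 3 carried the genotype Dicer1+/D1693N, with 1 normal Dicer1 allele and 1 allele with the D1693N change, and oviducts 4 and 5 were Dicer1+/+. The tumors were Dicer1ko/D1693N, so a knocked-out allele stood opposite the D1693N allele, which the 3 heterozygous oviducts carried too. The labels name no treatment, and age, strain and the driver of the knockout are not given in the sources used here. The labels do not say that libraries came from separate animals, so p-values measure the spread between these samples only.

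Chaperones bind proteins that are not yet folded or have lost their fold. In the cytosol, J-domain proteins deliver such clients to HSP70, nucleotide exchange factors of the HSP110 and BAG families release them, and HSP90 takes over many kinases and receptors for a late folding step, while small heat shock proteins hold clients without using ATP. HSP60 and its lid HSP10 fold proteins inside mitochondria. Under proteotoxic stress HSF1 binds heat shock elements, arrays of GAA units in alternating orientation, near the starts of many of these genes, which are known also to be expressed at a basal level in unstressed tissue.

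Promoter sequences were read around the starts of the members, since HSF1, the product of a member, is known to act there and since the levels of the members did not move together in the tumors. RefSeq promoters (GRCm38.p6, 250 bases before to 50 after each start) were at hand for 7 of the 10 members, with 10 promoters among them. Hsf1, Hspa8 and Hsp90aa1 had no entry. Of these 7 members, 6 held at least 1 pair of units, GAANNTTC or TTCNNGAA, in any of their promoters, and Dnajb1 held none. These 6 are not separate cases, since Hspd1 and Hspe1 share an element and Hspa1a and Hspa1b are near-identical copies. Each of these motifs reads the same on both strands, and the pair of motifs can overlap. Of all 32851 promoters of the same length, 7.86% held GAANNTTC, 8.52% held TTCNNGAA and 15.06% held either. These shares count promoters, not genes, so they are not on the same footing as the count of members. An array of 3 units, GAANNTTCNNGAA or its reverse complement TTCNNGAANNTTC, was found for Hsph1, Hspd1 and Hspe1 and in 0.6% of all promoters. For Hsph1 the array begins after the starts, at position 36 from chr5:149636336 and 15 from chr5:149636315. A TTCNNGAA match of Hsph1 lies before them, at -33 and -54. For Hspd1 the array lies before the start at chr1:55087932. The promoter of the other Hspd1 start, chr1:55088243, where the annotated gene begins, held neither motif, and the array lies downstream of that start. These matches describe letters, not bound sites.

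The windows below show the arrays, 5′ to 3′ on the strand of the gene, with the units of each motif match in capitals and any other GAA or TTC in lower case. Hspd1 and Hspe1 are transcribed away from each other and share 1 window, chr1:55088053-55088082, which lies in an annotated Hspd1 exon and holds 4 units in a row. The Hsph1 window (chr5:149636280-149636309, minus strand) lies in an annotated Hsph1 exon. The window of the Hsph1 match before the starts (chr5:149636351-149636380) is not shown. The Hspb1 windows (chr5:135887791-135887820 and chr5:135887811-135887840, plus strand), and the windows of Hspa1a (chr17:34972242-34972271, minus strand) and Hspa1b (chr17:34959324-34959353, minus strand) lie in no annotated exon.
Hspd1: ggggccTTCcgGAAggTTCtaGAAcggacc
Hspe1: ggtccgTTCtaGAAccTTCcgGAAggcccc
Hsph1: tgctgcagaTTCtgGAAagTTCtcctcagt
Hspb1 (upstream window): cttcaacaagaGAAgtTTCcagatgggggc
Hspb1 (downstream window): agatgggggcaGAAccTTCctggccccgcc
Hspa1a and Hspa1b: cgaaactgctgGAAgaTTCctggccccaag

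The Hspa1a and Hspa1b promoters were identical at 296 of 300 bases. The stretch from 140 to 11 bases before each start (chr17:34972167-34972296 for Hspa1a and chr17:34959249-34959378 for Hspa1b, minus strand) had no differing base. It is shown because these near-identical copies are the members with the largest positive log2 changes. Capitals mark the 1 GAANNTTC match by its units, leaving other GAA in lower case, and 1 ATTGG, the reverse complement of CCAAT, which either strand of 37.41% of all promoters held.
Hspa1a and Hspa1b upstream stretch: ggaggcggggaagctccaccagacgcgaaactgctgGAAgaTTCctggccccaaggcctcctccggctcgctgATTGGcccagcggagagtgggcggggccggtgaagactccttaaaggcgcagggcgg

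The libraries held 8504993 to 12526078 reads in the oviducts and 8732190 to 11267144 in the tumors. Dicer1 itself ranged over 903.9 to 1236.8 normalized counts in oviducts and 576.3 to 1379.2 in tumors, and gene-level values do not show which allele a read came from. Ciliated-cell genes were low in the tumors: of 18 measured 17 were lower, their summed level was 28039 to 44422 normalized counts in the oviducts and 369.1 to 1550 in the tumors, and none was at 0 in every tumor. Secretory genes (12 measured) summed to 102768 to 181758 in the oviducts and 21966 to 40196 in the tumors, but did not move together. By the rule given below 2 were called higher (Cldn4 and Wfdc2) and 3 lower (Ovgp1, Cdh1 and Ehf), with a median log2 change of -0.38. The mean log2 value of the list overlapped, at 11.15 to 11.42 in the oviducts and 10.27 to 11.28 in the tumors. All 14 of 14 proliferation genes were higher in the tumors (1127 to 1643 against 6506 to 10803 normalized counts in sum). Red cell genes (6 measured) summed to 890.9 to 1703 in the oviducts, 49624 in tumor 1 and 1026 to 1567 in tumors 2 to 4. Fat cell genes (7 measured) summed to 2570 to 20127 in the oviducts, 102745 in tumor 4 and 318.6 to 1137 in tumors 1 to 3. In bulk tissue, fewer cells of a type and less RNA per cell cannot be told apart. Whether these differences between tissues or libraries take part in the results below was not tested.

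Levels are given as normalized counts, reads divided by the size factor of each library, as recovered from the deposited log2 values. A change is the mean deposited log2 value of the tumors minus that of the oviducts, with its SE from limma. A gene was called at a Benjamini-Hochberg adjusted p under 0.05 over all 19435 genes together with a log2 change of 1 or more in either direction. Of the 10 members, 3 were called: Hspa1b was higher in the tumors, and Hsph1 and Hsp90aa1 were lower. Among all genes of the table the share called higher was 6.53% and the share called lower 12.1%. With the adjusted p alone the same 3 members passed, against 12.6% of all genes higher and 18.5% lower. The median change of the 10 members was 0.32, with 6 means higher and 4 lower, and the median of all genes was -0.05.

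**Figure D1:**
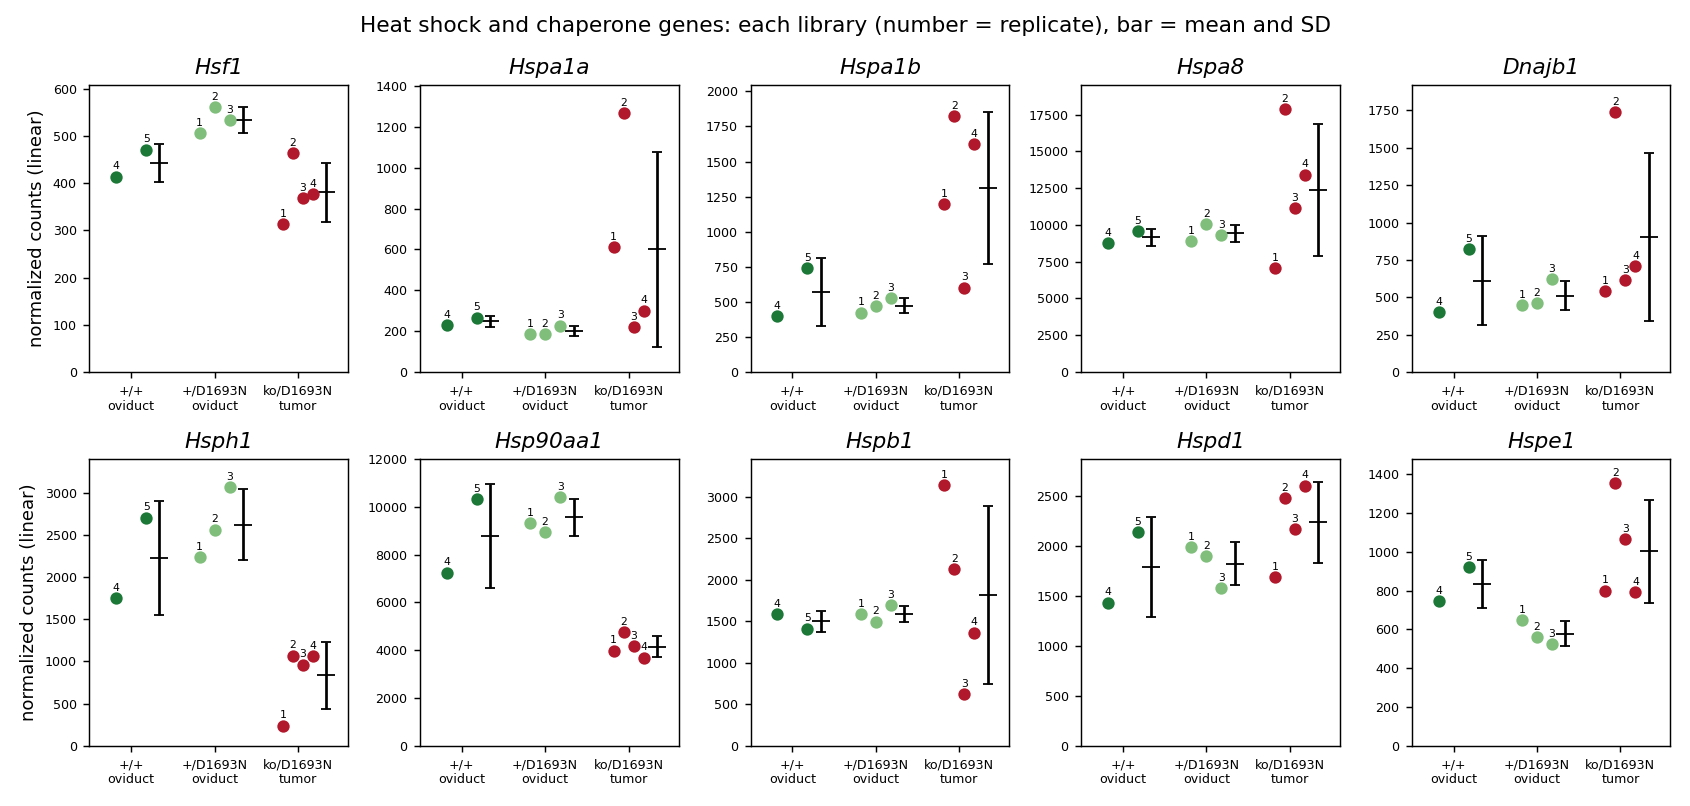
Normalized counts of the 10 members in each of the 9 libraries (linear axis from 0, 1 panel per gene, points numbered by replicate), by genotype, with bars for the mean and SD of the Dicer1+/+ oviducts, the Dicer1+/D1693N oviducts and the tumors. For Hsph1 and Hsp90aa1 every tumor lies below every oviduct, and in the other 8 panels the groups overlap.

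**Figure D2:**
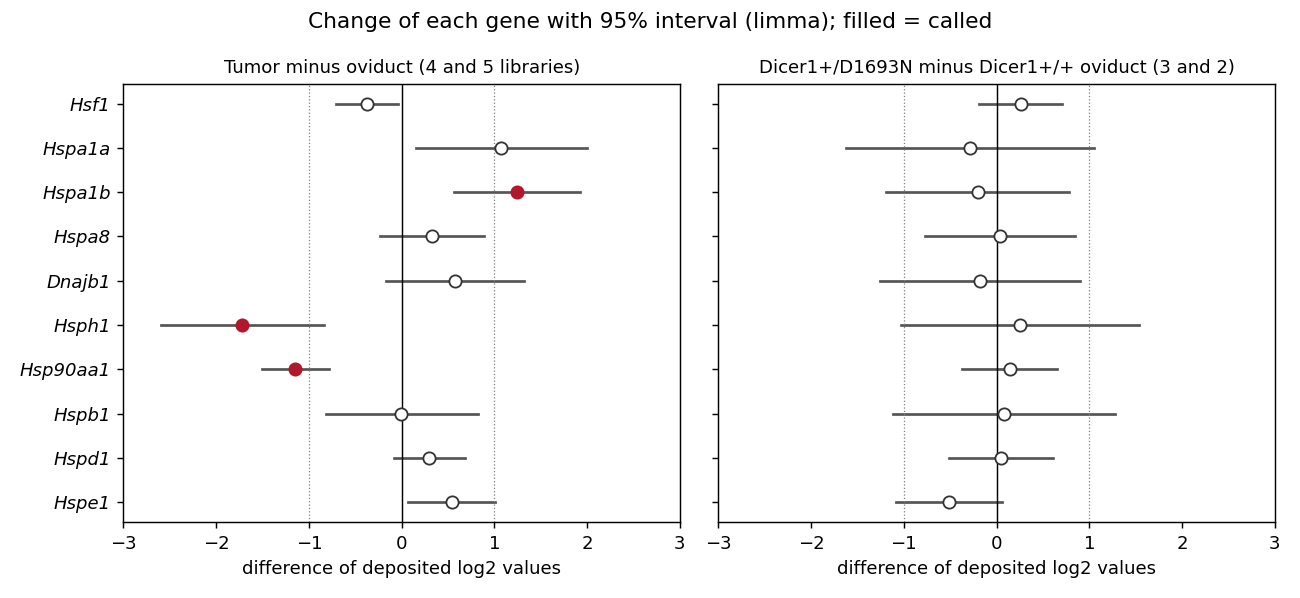
Log2 change of each member with its 95% interval from limma, tumors minus oviducts on the left and Dicer1+/D1693N minus Dicer1+/+ oviducts on the right, filled where called and with dotted lines at a change of 1 in either direction. Hspa1b is filled above 0 and Hsph1 and Hsp90aa1 below it, and every interval on the right spans 0. Intervals on the right use the spread of all 9 libraries, tumors included.

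The regulator had a lower mean in the tumors, short of the threshold. Hsf1 (ENSMUSG00000022556.11, chr15:76477422-76501913, plus strand) encodes the main stress-activated heat shock factor. It stood at 506.8, 561.5, 533.3, 414.2 and 471.1 normalized counts in oviducts 1 to 5 and at 312.7, 464.4, 368.2 and 377.5 in tumors 1 to 4. Tumors 1, 3 and 4 lay below every oviduct, and tumor 2 fell among them. The means were 497 ± 57.2 (SD, n = 5) and 381 ± 62.7 (n = 4), a change of -0.37 ± 0.15 (limma adjusted p = 0.0846, 95% interval -0.71 to -0.04). Hsf2, a related factor that can pair with HSF1, stood at 381 ± 35.6 and 308 ± 146 (-0.40 ± 0.28, limma adjusted p = 0.303), with changes of -0.12 without tumor 4 and -0.64 without tumor 3. The activity of HSF1 is set largely at the protein level, which these values do not measure.

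The stress-inducible HSP70 pair had higher means in the tumors, with wide differences between tumors. Hspa1a (ENSMUSG00000091971.3, chr17:34969190-34972156) and Hspa1b (ENSMUSG00000090877.3, chr17:34956436-34959238) are single-exon neighbours on the minus strand, and they encode the HSP70 that is made in bulk upon heat shock. Hspa1b stood at 423.1, 470.2, 525.4, 400.9 and 739.1 normalized counts in oviducts 1 to 5 and at 1198.4, 1826.0, 601.2 and 1623.8 in tumors 1 to 4. Tumors 1, 2 and 4 lay above every oviduct, while tumor 3 was below oviduct 5. The means of 512 ± 136 and 1312 ± 542 correspond to a ratio of 2.57, and the change was 1.24 ± 0.31 (limma adjusted p = 0.0116, 95% interval 0.56 to 1.92). With only the 2 Dicer1+/+ oviducts as controls the change was 1.12 and the call was lost (limma adjusted p = 0.0996).

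Hspa1a, with 186.4, 186.4, 226.9, 227.9 and 266.8 normalized counts in oviducts 1 to 5, stood at 611.8, 1268.4, 220.7 and 300.8 in tumors 1 to 4. Tumor 2 was far above the other libraries, and tumor 3 lay inside the oviduct range. Its change of 1.08 ± 0.42 did not pass (limma adjusted p = 0.0728, 95% interval 0.16 to 2.00). Without tumor 2 the change was 0.62 (limma adjusted p = 0.147). Without tumor 3 it was called at 1.43 (limma adjusted p = 0.0163), and without tumor 4 at 1.29 (0.0408). The pair shares sequence: of all 150-base stretches of their transcripts, 39.7% for Hspa1a and 40.5% for Hspa1b also occur in another gene, so reads may have been split or dropped between the copies. The exon of Hspa1a also overlaps the antisense gene Gm20481 by 377 bases, and whether strand was used in counting is not given in the sources used here.

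The copies were therefore also summed. The sum was 609.5, 656.6, 752.3, 628.8 and 1005.9 normalized counts in oviducts 1 to 5 and 1810.2, 3094.4, 821.9 and 1924.5 in tumors 1 to 4. Only tumor 3 fell within the oviduct range. The change of the sum was 1.24 ± 0.32 (limma adjusted p = 0.0145), close to that of Hspa1b alone. The ratio of Hspa1b to Hspa1a was 1.76 to 2.77 in the oviducts and 1.44 to 5.40 in the tumors, the highest in tumor 4.

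The constitutive HSP70 did not pass the test, and its tumor values ran widely. Hspa8 (ENSMUSG00000015656.17, chr9:40800984-40810087, plus strand) encodes HSC70, the housekeeping member of the family. The oviducts held 8888.6, 10043.9, 9333.5, 8759.6 and 9568.0 normalized counts, and tumors 1 to 4 held 7051.4, 17870.5, 11158.5 and 13426.5. Tumors 2, 3 and 4 were above every oviduct and tumor 1 below every oviduct. The change was 0.33 ± 0.25 (limma adjusted p = 0.348, 95% interval -0.23 to 0.89). It was 0.13 without tumor 2 (limma adjusted p = 0.705) and 0.58 without tumor 1 (0.052). Relative to Hspa8, the summed inducible pair had a ratio of 0.0654 to 0.105 in the oviducts and 0.0737 to 0.257 in the tumors, highest in tumor 1, a ratio that was not tested.

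The J-domain member followed tumor 2. Dnajb1 (ENSMUSG00000005483.10, chr8:83608193-83612653, plus strand) encodes HSP40, which hands clients to HSP70. Its normalized counts were 448.7, 463.4, 620.9, 400.1 and 823.9 in oviducts 1 to 5 and 541.9, 1740.8, 615.8 and 710.9 in tumors 1 to 4. Apart from tumor 2, all tumors lay inside the oviduct range. The change was 0.58 ± 0.33 (limma adjusted p = 0.219, 95% interval -0.17 to 1.32), and 0.21 without tumor 2 (limma adjusted p = 0.544).

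Hsph1 was the member with the largest fall. Hsph1 (ENSMUSG00000029657.15, chr5:149614287-149636376, minus strand) encodes HSP105, an HSP110 protein that acts as a nucleotide exchange factor of HSP70 and, like it, is inducible by stress. It stood at 2233.6, 2560.4, 3066.7, 1749.7 and 2701.8 normalized counts in oviducts 1 to 5 and at 238.9, 1067.4, 962.6 and 1061.1 in tumors 1 to 4. Every tumor was below every oviduct, and tumor 1 was far below the other tumors. The means of 2462 ± 498 and 832.5 ± 399 gave an oviduct to tumor ratio of 2.96 and a change of -1.72 ± 0.40 (limma adjusted p = 0.00835, 95% interval -2.60 to -0.84). Without tumor 1 the change was -1.22 and still called, and with only the Dicer1+/+ oviducts as controls it was -1.57 and not called (limma adjusted p = 0.0799).

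The ciliated-cell genes, lower in the tumors as given above, summed to 1550, 428.1, 658.6 and 369.1 normalized counts in tumors 1 to 4, and red cell genes were high in tumor 1. The part of either in the Hsph1 values was not tested. The HSP110 relatives of Hsph1 diverged. Hspa4l, an HSP110 gene known for its role in the testis, went from 2377 ± 305 to 318 ± 192 normalized counts (a fall by 3.00 ± 0.33 on the log2 scale, limma adjusted p = 9.19e-05). Hspa4, the constitutive relative, stood at 2717 ± 388 and 2894 ± 631 (0.07 ± 0.18, limma adjusted p = 0.80).

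Hsp90aa1 fell in every tumor by a similar amount. Hsp90aa1 (ENSMUSG00000021270.13, chr12:110690605-110702728, minus strand) encodes the stress-inducible form of cytosolic HSP90. It stood at 9324.0, 8929.9, 10415.1, 7246.4 and 10333.9 normalized counts in oviducts 1 to 5 and at 3986.5, 4771.7, 4174.7 and 3689.2 in tumors 1 to 4. Every tumor lay below every oviduct, and the 4 tumors were closer together than for any other member. The means of 9250 ± 1290 and 4156 ± 457 gave an oviduct to tumor ratio of 2.23 and a change of -1.15 ± 0.16 (limma adjusted p = 0.000504, 95% interval -1.51 to -0.78). It was the only member called under every alternative tried.

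The constitutive partner of Hsp90aa1 was not called. Hsp90ab1 encodes the HSP90 made at a steady level in most tissues, and its normalized counts were 17531 ± 1935 (oviducts) and 22366 ± 4468 (tumors) (0.34 ± 0.22, limma adjusted p = 0.267), with a change of 0.21 without tumor 1 and the sign reversed under quantile normalization (-0.38). The ratio of Hsp90aa1 to Hsp90ab1 within a library was 0.568, 0.540, 0.637, 0.415 and 0.495 in oviducts 1 to 5 and 0.137, 0.233, 0.205 and 0.188 in tumors 1 to 4. The ratio does not depend on the size factor of each library, and every tumor was below every oviduct. It can change under quantile normalization, where the change of Hsp90aa1 was -1.48 and that of Hsp90ab1 -0.38. The mean log2 ratio of the tumors minus that of the oviducts was -1.49. The ratio was picked after the values of both genes were known and is given as a description, with no test.

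**Figure D3:**
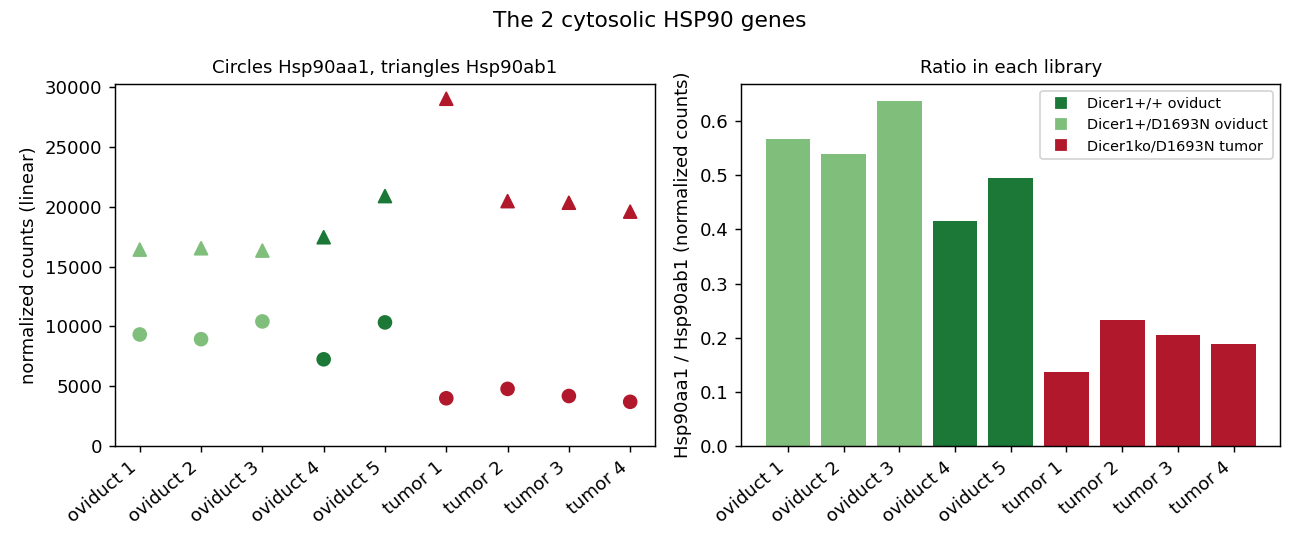
Hsp90aa1 (circles) and Hsp90ab1 (triangles) in each library as normalized counts on a linear axis, and bars for their ratio, coloured by genotype. The ratio is 0.415 to 0.637 in the 5 oviducts and 0.137 to 0.233 in the 4 tumors.

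Of the Hsp90aa1 transcript, 28.5% of 150-base stretches also occur in other annotated genes, among them Gm12346. This share was 22.8% for Hspa8, 16.1% for Hspd1 and 6.6% for Hspe1, and 0 for Hsph1, Dnajb1 and Hsf1.

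Hspb1 had the same mean log2 level in both tissues and the widest contrast of spread. Hspb1 (ENSMUSG00000004951.10, chr5:135887919-135889563, plus strand) encodes HSP25, the mouse form of HSP27, a holdase that is abundant in muscle. The oviducts were tight at 1588.4, 1497.3, 1692.6, 1592.5 and 1413.4 normalized counts, and tumors 1 to 4 held 3140.6, 2128.1, 627.1 and 1364.0. Tumors 1 and 2 were above every oviduct and tumors 3 and 4 below every oviduct. The SD of log2 values was 0.10 in the oviducts and 0.98 in the tumors, and the change was -0.003 ± 0.37 (limma adjusted p = 0.996, 95% interval -0.82 to 0.82).

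The 12 smooth muscle genes of the marker list summed to 78991, 26835, 7352 and 14305 normalized counts in tumors 1 to 4, the same order as Hspb1, and to 45454 to 90925 in the oviducts, with 0 of the 12 at 0 reads throughout either group. The red cell sums given above run in that order too (49624, 1567, 1026 and 1360 in tumors 1 to 4). With 7 of 12 lower in the tumors, the smooth muscle list also moved between the groups, and the part of either list in the Hspb1 values was not tested. Of the Hspb1 transcript, 39.1% of 150-base stretches also occur in the pseudogene Hsp25-ps1.

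The mitochondrial chaperonin genes had slightly higher means in the tumors and neither passed. Hspd1 (ENSMUSG00000025980.14, chr1:55077835-55088243, minus strand) encodes HSP60 and Hspe1 (ENSMUSG00000073676.4, chr1:55088132-55091307, plus strand) its lid HSP10. Hspd1 stood at 1991.4, 1901.6, 1580.1, 1435.3 and 2144.7 normalized counts in oviducts 1 to 5 and at 1692.7, 2483.5, 2176.3 and 2608.1 in tumors 1 to 4 (0.30 ± 0.17, limma adjusted p = 0.214, 95% interval -0.08 to 0.68). Hspe1 stood at 649.7, 561.5, 522.4, 745.9 and 923.3 in the oviducts and at 800.2, 1354.7, 1065.1 and 794.0 in the tumors (0.54 ± 0.21, limma adjusted p = 0.0765, 95% interval 0.07 to 1.01). For Hspd1, tumor 1 was inside the oviduct range and the others above it, and for Hspe1 tumors 2 and 3 were above all oviducts. The change of Hspe1 was 0.745 with only the Dicer1+/D1693N oviducts as controls (limma adjusted p = 0.0323). With only the Dicer1+/+ oviducts it was 0.233 (0.55). It was 0.655 without oviduct 5 (limma adjusted p = 0.0414) and 0.639 without tumor 4 (0.0478). All of these stayed under the minimum size.

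Their exons overlap by 112 bases on opposite strands. The ratio of Hspd1 to Hspe1 was 2.75 ± 0.60 in the oviducts and 2.32 ± 0.65 in the tumors, with overlap. Hspa9, the mitochondrial HSP70 that works upstream of HSP60, was above every oviduct in every tumor, at 2032 ± 145 and 3020 ± 570 normalized counts. Its change of 0.55 ± 0.15 (limma adjusted p = 0.0171) stayed under the minimum size.

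Across the members, 0 had every tumor above every oviduct and 2 had every tumor below, against 10.8% and 16.8% of all genes. The SD of log2 values was larger in the tumors for 9 of 10 members, and 84.01% of all genes showed the same. Its median over the members was 0.22 in the oviducts and 0.63 in the tumors, and over all genes 0.23 and 0.47. The exception was Hsp90aa1, with 0.21 and 0.15.

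Particular libraries held many of the extremes, though how often each library was extreme over all genes was not counted. Tumor 2 had the highest tumor value for 8 of 10 members, all but Hspb1 and Hspd1, though only by a small margin for Hsph1. Tumor 1 had the lowest for Hsf1, Hspa8, Dnajb1, Hsph1 and Hspd1 but the highest for Hspb1, and tumor 3 the lowest for Hspa1a, Hspa1b and Hspb1. Among the oviducts, oviduct 4 was the lowest for 7 members and oviduct 5 the highest for 5.

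Immediate early genes, which tissue handling can induce as stress can, moved along with some members. Of 19 measured, 11 were called higher, none was at 0 throughout either group, and their summed level was 11418 to 15110 normalized counts in the oviducts. In tumors 1 to 4 the sum was 54599, 81506, 24152 and 29644. Tumor 2 was the highest and tumor 3 the lowest, as for Hspa1a and Hspa1b. Whether handling or RNA quality had a part in the HSP70 values was not tested. Macrophage genes (9 measured, 6 called higher) summed to 4153 to 6541 in the oviducts and to 20116, 32589, 6810 and 54125 in tumors 1 to 4, again lowest in tumor 3, and their part was not tested either.

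**Figure D4:**
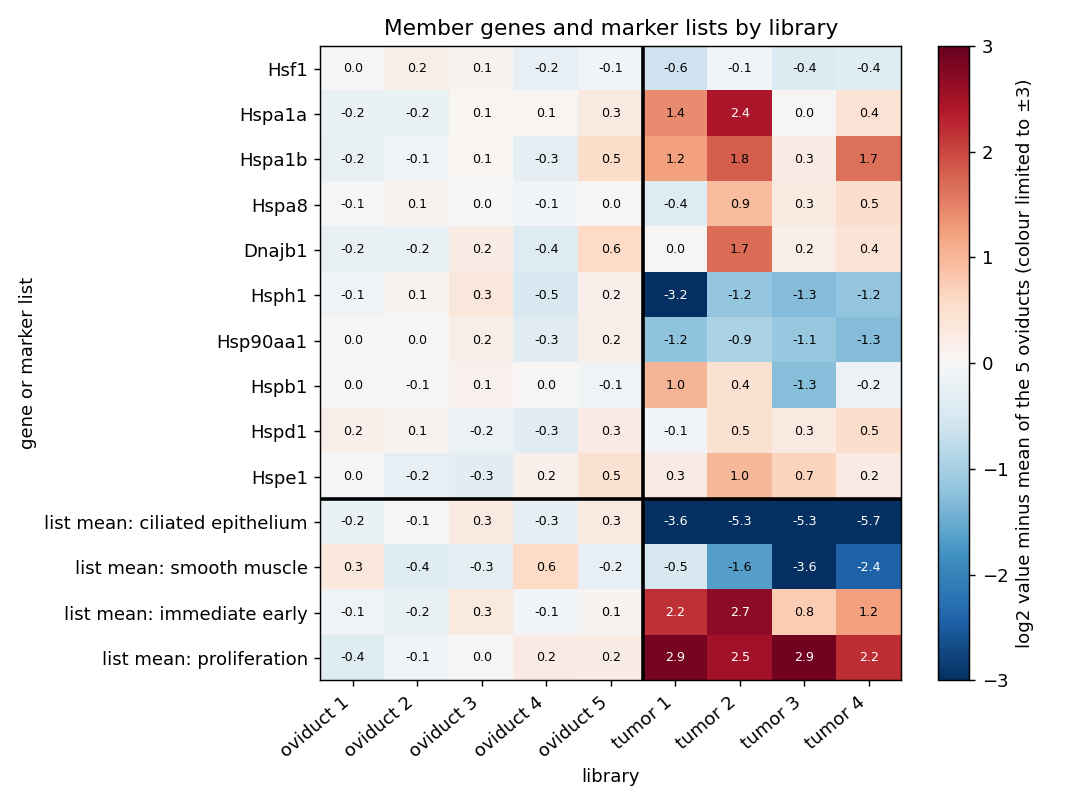
Deposited log2 value of each member minus its mean over the 5 oviducts, for the 9 libraries, with the mean over the genes of 4 marker lists treated the same way beneath them and the value printed in each cell (colour stops at 3 in either direction). Tumor 2 has the highest tumor value for 8 of the 10 members (not counted over all genes), and Hsph1 and Hsp90aa1 are negative in all 4 tumors.

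To compare genes with each other, normalized counts were divided by exonic length in kb, the merged length of all exons annotated for a gene. This length can exceed that of the transcripts present, so the ranks depend on it. It was longest for Hsph1 (7.266 kb) and Hsf1 (7.099 kb) among the members. In the oviducts Hsp90aa1 was highest at 2353 ± 328 normalized counts per kb, and it overlapped Hspa8 at 2167 ± 121. Hspb1 followed at 1510 ± 103, apart from its neighbours on either side. Hspd1 (685 ± 111), Hspe1 (462 ± 109), Hsph1 (339 ± 68.6), Hspa1b (183 ± 48.5) and Dnajb1 (172 ± 54.1) each overlapped the next in that order. Hspa1a (73.8 ± 11.4) and Hsf1 (70.1 ± 8.06) were lowest, overlapped each other and lay apart from Dnajb1.

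In the tumors the order by mean was Hspa8 (2878 ± 1050 normalized counts per kb), Hspb1 (1760 ± 1043), Hsp90aa1 (1057 ± 116), Hspd1 (848 ± 154), Hspe1 (681 ± 181), Hspa1b (468 ± 193), Dnajb1 (282 ± 176), Hspa1a (202 ± 161), Hsph1 (115 ± 54.9) and Hsf1 (53.6 ± 8.84). Every neighbouring pair overlapped. Hsp90aa1 moved from rank 1 to rank 3 and Hsph1 from rank 6 to rank 9. Hsp90ab1 stood above all members in both tissues, at 5846 ± 645 and 7458 ± 1490 per kb.

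The comparison of Dicer1+/D1693N with Dicer1+/+ oviducts addresses the D1693N allele in normal tissue, beside a normal allele. By limma 0 of 10 members were called, every adjusted p was 1.0, and 0 members had an unadjusted p under 0.05, against 2.74% of all genes. Only 0.00515% of all genes were called higher and 0.0154% lower, under either call rule. The largest difference was in Hspe1, at 578 ± 65.2 normalized counts (n = 3) and 835 ± 125 (n = 2), a change of -0.51 ± 0.25 (limma unadjusted p = 0.0727, 95% interval -1.08 to 0.06). All 3 heterozygous oviducts were below both Dicer1+/+ oviducts for Hspe1 and Hspa1a, and above both for Hsf1 (534 ± 27.4 against 443 ± 40.2). Over all genes, 15.74% were separated with the heterozygous oviducts below and 16.3% with them above. The remaining changes, heterozygous minus Dicer1+/+, ran from -0.28 ± 0.59 for Hspa1a to 0.26 ± 0.20 for Hsf1. Their 95% intervals reach from -1.62 to 1.05 for Hspa1a and from -1.03 to 1.54 for Hsph1, so changes of more than log2 1 in these genes lie within them. These intervals and p-values use the spread of all 9 libraries, tumors included, not that of the oviducts alone. For Hspa1a the SD of log2 values was 0.15 in either oviduct genotype and 1.08 in the tumors. For Hspb1 it was 0.09 (heterozygous), 0.12 (Dicer1+/+) and 0.98 (tumors). A fit of only the 5 oviducts also called 0 members.

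The wider chaperone network was read from 9 lists, of which 108 of 109 genes were measured. Of these, 4 were called higher in the tumors and 12 lower, against the table's shares given above, and the median change was -0.12. Without the minimum size 17 passed higher and 19 lower. Between the oviduct genotypes 0 genes of the lists were called by limma.

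Among other HSP70 and HSP110 genes (11 measured, 1 called higher and 2 lower, median 0.04), Hspa12b, a distant relative expressed in endothelium, rose from 120 ± 14.6 to 314 ± 134 normalized counts (1.15 ± 0.30, limma adjusted p = 0.0151), while 8 of 9 endothelial marker genes were higher (sums of 2674 to 4651 and 6114 to 13229). Without tumor 2 or tumor 3 the change of Hspa12b was 0.99 and 0.98, under the minimum size. The endothelial sum was highest in tumor 1 (13229) and Hspa12b in tumor 3 (418.8), with both lowest in tumor 4. The part of the endothelial genes in the Hspa12b values was not tested. Hspa2, the HSP70 gene best known from male germ cells, fell from 1449 ± 282 to 162 ± 49.4 (-3.04 ± 0.22, limma adjusted p = 6.52e-06), as did Hspa4l. Of 22 other J-domain genes (median -0.23), 0 were called higher and 4 lower. Dnaja4 fell from 2171 ± 311 to 199 ± 29.8 (-3.32 ± 0.15, limma adjusted p = 5.27e-07). Dnajb13, a protein of the radial spokes of cilia, fell from 375.5 ± 82.6 to 32.1 ± 7.75 (-2.94 ± 0.21, limma adjusted p = 6.13e-06). Dnajb2 changed by -1.80 ± 0.14 and Dnajc12 by -1.07 ± 0.28 (limma adjusted p = 8.28e-06 and 0.0138), the latter -0.97 without oviduct 3 and -0.92 without tumor 3. The ciliated sums given above fell alongside these genes, and their part was not tested.

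Small heat shock proteins apart from Hspb1 (6 of 7 measured, median -0.95) held 3 called genes, all lower. Hspb7, a muscle protein, fell from 356.5 ± 127 to 108 ± 69.0 normalized counts (-1.65 ± 0.38, limma adjusted p = 0.00768). Hspb8, the partner of BAG3 in selective autophagy, fell from 1320 ± 244 to 658 ± 346 (-1.08 ± 0.28, limma adjusted p = 0.0148), and Hspb11, also known as the ciliary transport subunit IFT25, from 143 ± 31.8 to 59.2 ± 33.9 (-1.14 ± 0.32, limma adjusted p = 0.0207). Without tumor 3 the changes of Hspb8 (-0.88) and Hspb11 (-0.85) were under the minimum size, and without oviduct 3 or oviduct 5 Hspb11 did not pass (limma adjusted p = 0.053 and 0.0507). Of 6 heat shock factor genes and regulators (median -0.29) only Hsf4 was called, higher at 29.5 ± 10.1 and 83.5 ± 24.0 normalized counts (1.10 ± 0.26, limma adjusted p = 0.00891), and its change was 0.96 without tumor 1 and 0.98 without oviduct 5.

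The lists of HSP90 cochaperones (13 measured, median -0.20), exchange factors and HSP70 partners (8, median -0.23), mitochondrial folding (10, median 0.24) and TRiC with prefoldin (14, median 0.42) held 0 called genes each. By limma's adjusted p alone 2, 3, 1 and 7 of them passed. Of the partners singled out, Bag3 stood at 1028 ± 118 and 696 ± 65.2 normalized counts (-0.55 ± 0.13, limma adjusted p = 0.00923, every tumor below every oviduct) and Stip1 at 1476 ± 177 and 1297 ± 248 (-0.20 ± 0.16, limma adjusted p = 0.381, and -0.08 without tumor 1). The 7 TRiC genes that passed on adjusted p alone, among them Tcp1 (1775 ± 115 and 3615 ± 810, 0.99 ± 0.16, limma adjusted p = 0.000954), had every tumor above every oviduct. TRiC is the cytosolic chaperonin that folds actin and tubulin.

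**Figure D5:**
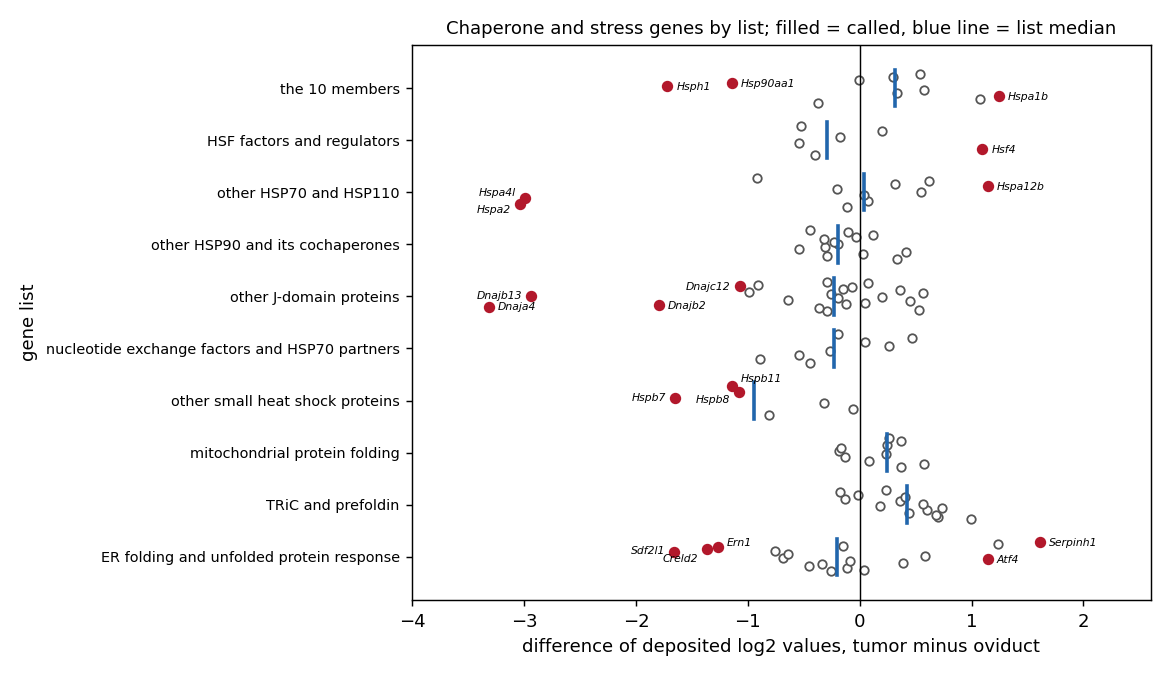
Difference of deposited log2 values, tumor minus oviduct, for the members and each of the 9 lists, 1 point per gene, filled where called and with a line at the list median. Hspa2, Hspa4l, Dnaja4 and Dnajb13 lie near -3, and the TRiC and prefoldin points lie mostly above 0.

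For each member the 3 genes with the nearest pattern were found among 8486 genes with a mean log2 value of at least 8, by the root mean square difference of centred log2 values over the 9 libraries. For Hsp90aa1 these were Map7 (0.15), Nek4 (0.15) and Alad (0.15), and for Hsf1 Rbck1 (0.07), Fundc1 (0.09) and Qsox2 (0.10). The nearest to Hspa1a were Btg2 (0.32), Ppp1r15a (0.36) and Ier5 (0.40), and to Hspa1b Tmem189 (0.25), Gusb (0.28) and Limd2 (0.30). Btg2 belongs to the immediate early list given above.

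Hsph1 was nearest to Emx2 (0.34), Zfp7 (0.35) and Pts (0.36), Hspb1 to Stom (0.21), Mafk (0.23) and Got1 (0.23), and Dnajb1 to Tmem158 (0.27), Nudt19 (0.32) and Srm (0.33). Hspa8 was nearest to Gpaa1 (0.13), Myd88 (0.15) and Zdhhc6 (0.15), Hspd1 to Phb (0.10), Kat2a (0.10) and Pak1ip1 (0.11), and Hspe1 to Tmem11 (0.17), Ppia (0.17) and Degs1 (0.18). Among the members themselves the nearest pairs were Hspa8 with Hspd1 (0.24) and Hspd1 with Hspe1 (0.33), and the farthest was Hspa1a with Hsph1 (1.68). Hspa1a and Hspa1b, with 1 promoter sequence over the stretch shown, differed by 0.49.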

How the data were processed

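Poly-A RNA of 9 tissue libraries was purified on oligo-T beads after miRNeasy extraction and primed with random hexamers, per the labels. The submitters' processing notes name STAR 2.5.3a, HTSeq without a version, FastQC 0.11.5 and the build GRCm38 (mm10). The annotation and the use of strand in counting are not given in the sources used here.

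The deposited values are on a log2 scale with a shared floor of 3.427. Their transformation is not stated. Undoing a variance-stabilizing transformation returned whole reads over library size factors for all values (tolerance 0.05 reads), from which normalized counts and totals were taken. The shrinkage of low genes on this scale bears little on the members, whose lowest normalized count was 186.4. Intervals and SDs cover these libraries only, and reads carry no molecular identifiers.

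Tumor against oviduct was fitted on the deposited log2 values with limma 3.58.1 (R 4.3.3, trend in the prior variance, 2 groups, two-sided), and the oviduct genotypes in a 3-group fit in which all 9 libraries share 1 spread, each with Benjamini-Hochberg adjustment over 19435 genes and no filter. Limma fits of the same form were also run on simulated counts. The spread of these counts was taken from the oviducts, so the larger spread of the tumors was not covered. Lengths, positions and exons come from GENCODE M21 (GRCm38), and promoters from RefSeq (GRCm38.p6). Alternatives were no prior trend, quantile normalization, log2 of normalized counts plus 1 or plus 10, voom on the recovered reads, a mean log2 of at least 6, no minimum change, library weights, other control groups, a replicate block, each library left out, and the summed HSP70 pair.

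Members and lists were chosen with earlier results of these data known. All members were named, with up to 4 called genes per list and direction (largest change first), constitutive partners of members, and the 3 nearest genes per member. Tcp1 and the ratios were chosen after their values were seen. No batch is given in the labels.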

Additional observations from a re-analysis of the deposited data

Results flagged for a closer look

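Hsph1 in tumor 1 stood apart from the other tumors. Its deposited log2 value was 8.02, against 9.94 to 10.09 in tumors 2 to 4, a gap of 0.929 of the range of the 4 tumors, where 0.829 is the 95% limit. Of 20 member and group combinations looked at, this was the 1 that passed, and chance gives about 1 in 20. Tumor 1 was also far above the other tumors in red cell genes (a sum of 49624 normalized counts against 1026 to 1567), whose part in this value was not tested.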

How the results depend on the processing

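Of 390 member values under alternatives, 366 kept direction and side of the threshold. The 3 called members became 5 with library weights, which added Hspa1a (1.61, limma adjusted p = 0.00575) and Dnajb1 (1.01, 0.0426). They became 1 with the Dicer1+/+ oviducts as the only controls, a contrast with these 2 oviducts in the 3-group fit, where all 9 libraries share 1 spread. They were 3 to 4 with a library left out, and 0 throughout between the oviduct genotypes. The 16 called list genes became 36 without a minimum change, and 11 to 20 with a library left out (11 without tumor 3). Deviations of same-numbered oviduct and tumor libraries correlated at 0.117, 0.061, -0.089 and 0.006. These values lay within the range of differently numbered libraries, -0.146 to 0.139. With so few libraries they cannot decide whether an oviduct and a tumor shared an animal or a batch. The replicate block gave 3 called members and 15 list genes.

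Quantile normalization, which moved the median change of all genes by 0.126, reversed Hspa8 (-0.096), Hsp90ab1 (-0.377) and Hspa4 (-0.13), and Hspa4 was also -0.032 with the Dicer1+/+ controls and -0.025 to 0.239 with a library left out. It called 1696 genes higher and 1943 lower. Hspb1, near 0, turned to 0.176 with library weights, 0.005 in the 3-group model, 0.047 with the Dicer1+/+ controls and -0.339 to 0.423 with a library left out. Between genotypes, leaving out a library gave ranges spanning 0 for Hspd1 (-0.238 to 0.335), Hspa8 (-0.024 to 0.103), Hsph1 (-0.056 to 0.565), Hsp90aa1 (-0.116 to 0.395), Hspa1b (-0.627 to 0.222), Dnajb1 (-0.682 to 0.323) and Hspb1 (-0.002 to 0.168). The cause was not tested. Over all alternatives Hsp90aa1 ran from -1.48 to -1.06, Hsph1 from -1.91 to -1.22 and Hspa1b from 1.05 to 1.57. The calls of Hsf4, Hspa12b, Dnajc12, Hspb8, Hspb11 and Atf4 were lost under 2 to 7 of 21 alternatives each. The log2 ratio of Hsp90aa1 to Hsp90ab1 was -1.59 to -1.34 with a library left out.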

Other observations

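The genes of folding in the endoplasmic reticulum and of the unfolded protein response belong to no member's compartment. Of 18 measured, limma called 2 higher and 3 lower, and the median change was -0.20. Serpinh1, the collagen chaperone HSP47, rose from 3263 ± 965 to 9887 ± 2168 normalized counts (1.61 ± 0.24, limma adjusted p = 0.00068). All 11 mesenchymal marker genes were higher too (sums of 11636 to 38608 and 125536 to 153567), and their part in the Serpinh1 values was not tested. Atf4, the transcription factor of the integrated stress response, rose from 1036 ± 244 to 2348 ± 683 (1.15 ± 0.22, limma adjusted p = 0.00291), which leaving out tumor 2 brought to 0.99, under the minimum size. Ern1, the stress sensor IRE1, fell from 1238 ± 104 to 525 ± 204 (-1.27 ± 0.21, limma adjusted p = 0.0012). Sdf2l1 (-1.66 ± 0.50, limma adjusted p = 0.0293) and Creld2 (-1.37 ± 0.43, 0.0339) were lower, and these calls were lost under 7 and 9 of 21 alternatives, among them leaving out tumor 1 (limma adjusted p = 0.0778 and 0.0892), tumor 3, or oviduct 2, 4 or 5. Hspa5, the HSP70 of this compartment, changed by 0.04 (limma adjusted p = 0.936).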
